A study of Homo sapiens with 6 samples.

Results

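The proteasome is the multi-subunit protease that degrades ubiquitin-tagged proteins, and the genes described here encode its subunits and assembly factors. Members were the protein-coding genes of the count table whose symbols begin with PSMA, PSMB, PSMC, PSMD, PSME, PSMF or PSMG, which gave 49 of the 58735 genes listed. All but 1 belong to the proteasome. The exception by name is PSMC3IP, which encodes a protein of meiotic recombination and is not a subunit. Its values are described apart, but counts, sums, medians and correlations over all members include it unless stated otherwise. RNA was sequenced from ARPE-19, a cell line derived from human retinal pigment epithelium (RPE), in 3 control libraries (NC, genotype WT) and 3 libraries of cells overexpressing CD51-ICD (OE CD51 ICD). CD51 is integrin alpha V, the product of ITGAV. The labels name no vector, promoter, clone or time, and do not state whether libraries of 1 group are separate cultures. The p-values therefore cover only the variation among these libraries, and this may be technical.

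The core particle is a barrel of alpha and beta rings, and its protease sites sit on the beta subunits PSMB5, PSMB6 and PSMB7. A regulatory cap binds the barrel: its base holds ATPases that unfold the substrate, and its lid removes the ubiquitin chain. In cells exposed to interferon, PSMB8, PSMB9 and PSMB10 take the place of the constitutive catalytic subunits to form the immunoproteasome, which favours peptides suited to MHC class I, and PSME1 with PSME2 forms an alternative cap. When proteasome activity is short, the transcription factor NFE2L1 raises most subunit genes together through antioxidant response elements. RPE cells take up photoreceptor outer segments daily, a task that a cell line in culture lacks. Proteasome activity was not measured here.

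Promoter sequences give a view of what the members share outside the measured values. RefSeq promoters (GRCh38.p14, 250 bases before to 50 after each start) were matched for 43 of the 49 members, and both strands were searched. The letters TTTCNNTTTC, the core of the interferon-stimulated response element, were found in 7 of 43 members (16.3%) against 4.38% of 27305 genes with a promoter. Among the immunoproteasome group 4 of 6 held them (PSMB8, PSMB10, PSME1 and PSME2). In these 4 and in the assembly factor gene PSMG4 the match was the exact run TTTCGCTTTC or its reverse complement, a run chosen after the sequences were seen, which 34 of the 27305 genes hold (0.125%). The 5 stretches are shown because they carry nearly the same letters, with the match in capitals. They lie at chr6:32844032-32844061 (minus strand), chr16:67936852-67936881 (minus), chr14:24136189-24136218 (plus), chr14:24146619-24146648 (minus) and chr6:3258904-3258933 (plus), in the order given.
PSMB8: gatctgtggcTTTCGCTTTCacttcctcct
PSMB10: gggtaaaggcGAAAGCGAAAgcaggaagta
PSME1: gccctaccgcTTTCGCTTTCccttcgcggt
PSME2: cctggggagtGAAAGCGAAAgcccgggcga
PSMG4: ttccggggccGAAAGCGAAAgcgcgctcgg
The match begins 4 bases before the annotated start in PSMB8, 21 before in PSMB10, 28 before in PSME2 and 33 before in PSMG4, and just after the start in PSME1. All 5 genes had negative log2 fold changes in OE CD51 ICD against NC, beside a median of -0.16 over all members. PSMB8, PSME1 and PSMG4 passed the test as lower (log2 -0.47, -0.31 and -0.38). PSMB10 and PSME2 did not pass (log2 -0.32 and -0.22). Whether the letters bear on these values was not tested.

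The letters TGACNNNGC, the core of the antioxidant response element, were in 15 of 43 members (34.9%) against 16.1% of genes. Holders were found among members that were higher, lower and not called, so the stretches below are shown for PSME4, which was higher, and for PSMB3 and PSMB9, which were lower. The capitals mark the match, at chr2:53971009-53971037 (minus), chr17:38752627-38752655 (plus) and chr6:32854034-32854062 (plus) in turn.
PSME4: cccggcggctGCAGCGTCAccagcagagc
PSMB3: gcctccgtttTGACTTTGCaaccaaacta
PSMB9: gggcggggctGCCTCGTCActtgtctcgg
By group, the letters were in 4 of 6 matched assembly factor genes, 3 of 6 immunoproteasome genes, 3 of 8 base genes and 2 of 8 lid genes. They were in 1 of 7 alpha ring genes, 1 of 3 other beta genes and 0 of 1 catalytic beta gene. Among PSME3, PSME4 and PSMF1, 1 of 3 held them. The CCAAT letters were in 21 of 43 members (48.8%) against 39.7% of genes, the interferon-gamma activated letters TTCNNNGAA in 8 of 43 (18.6%) against 9.38%, and the E2F letters TTCCCGCC in 7 of 43 (16.3%) against 3.79%. The 43 members include PSMC3IP, which held the CCAAT and E2F letters. These matches describe letters in a window and show no binding.

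Total counts ran from 13616694 to 16934668 per library, and members took 0.502% to 0.566% of them. ITGAV was 113, 92.7 and 89.3 CPM (counts relative to library size and TMM factor) in NC and 436, 536 and 371 in OE CD51 ICD. Every OE CD51 ICD library lay above every NC library, although reads of the construct and of the native transcript fall on the same gene. The epithelial keratins KRT8 and KRT18 averaged 3718 ± 189 and 1538 ± 68.8 CPM in NC (SD, n = 3), while RPE65, which encodes the visual cycle isomerase of mature RPE, had no count in any library and TYR, TYRP1 and BEST1 were too low to be tested. Other RPE markers moved between the groups: MITF, a pigment cell factor, was 26.6 ± 2.39 and 18.0 ± 4.27 CPM (log2 -0.56, adjusted p = 0.00119), PMEL was higher (log2 0.80, adjusted p = 1.25e-04) and RLBP1 was higher (log2 0.81, adjusted p = 0.0134), while OTX2, at 27.8 ± 2.63 and 28.9 ± 3.12 CPM, did not pass. Summed CPM of 10 leukocyte and microglia markers was 13.2 to 16.4 in NC and 36.6 to 46.9 in OE CD51 ICD. That difference lay in CSF1R, at 3.60 ± 0.894 against 32.9 ± 3.34 CPM. CD74, the marker with the highest level in NC, went the other way, at 11.1 ± 2.38 against 8.30 ± 2.0 CPM. It did not pass in edgeR's test (log2 -0.42, adjusted p = 0.0572). HLA-DRA had 6 counts in NC and 1 in OE CD51 ICD, P2RY12, CD3E and LYZ had no count anywhere and PTPRC, the pan-leukocyte marker, had 1 count in all. The part of all these markers in the members' values was not tested. In bulk RNA, fewer cells of a type and less RNA per cell cannot be told apart.

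Of the 49 members, 47 passed the low-count filter. PSMA8, the testis alpha subunit, and PSMB11, the thymus catalytic subunit, had no count in any library. In OE CD51 ICD against NC, 6 members were higher and 14 lower by edgeR's quasi-likelihood test (adjusted p under 0.05 over 13787 genes), and 27 did not pass. Those higher were PSMA1, PSMA5, PSMC2, PSMD1, PSMD2 and PSME4. The higher share was 12.8% of members tested, below the 25.2% over all genes, and the lower share was 29.8%, near the 25.8% over all genes. Without PSMC3IP, 13 of 46 tested members were lower (28.3%). In either direction, 42.6% of members were called against 51.0% of genes, so members were not called more often than genes at large. With higher values, the groups did not overlap in 8 of 47 tested members, a smaller share than the 28.0% of all genes. Lower values without overlap were found in 19 of 47 (18 of 46 without PSMC3IP), a larger share than the 29.5% of all genes. In either direction the share of members was near the 57.5% of all genes. The members' median log2 fold change was -0.16, beside 0.01 for all genes tested, and it stayed between -0.23 and -0.12 under the 22 alternative settings.

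Changes of single subunits were small. PSMC3IP alone fell by at least 2-fold among the members, where 12.7% of all genes were called with a change of that size. Without it, log2 fold changes ran from -0.64 in PSMB9 to 0.63 in PSME4. Summed over all members, the level was 5371 ± 156 CPM in NC against 5329 ± 350 CPM in OE CD51 ICD. Without PSMD2 the sums were 4214 ± 115 and 3764 ± 163 CPM. The splits of higher against lower calls among the 47 tested members moved with the scaling. Scaling by library size alone gave 3 higher and 22 lower, beside 2896 and 4051 of 13787 genes. Upper-quartile scaling gave 7 and 10, beside 3801 and 3208 of 13787 genes. Removing each library's trend with GC content gave 2 and 23, beside 3130 and 3784 of 13781 genes.

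**Figure D1:**
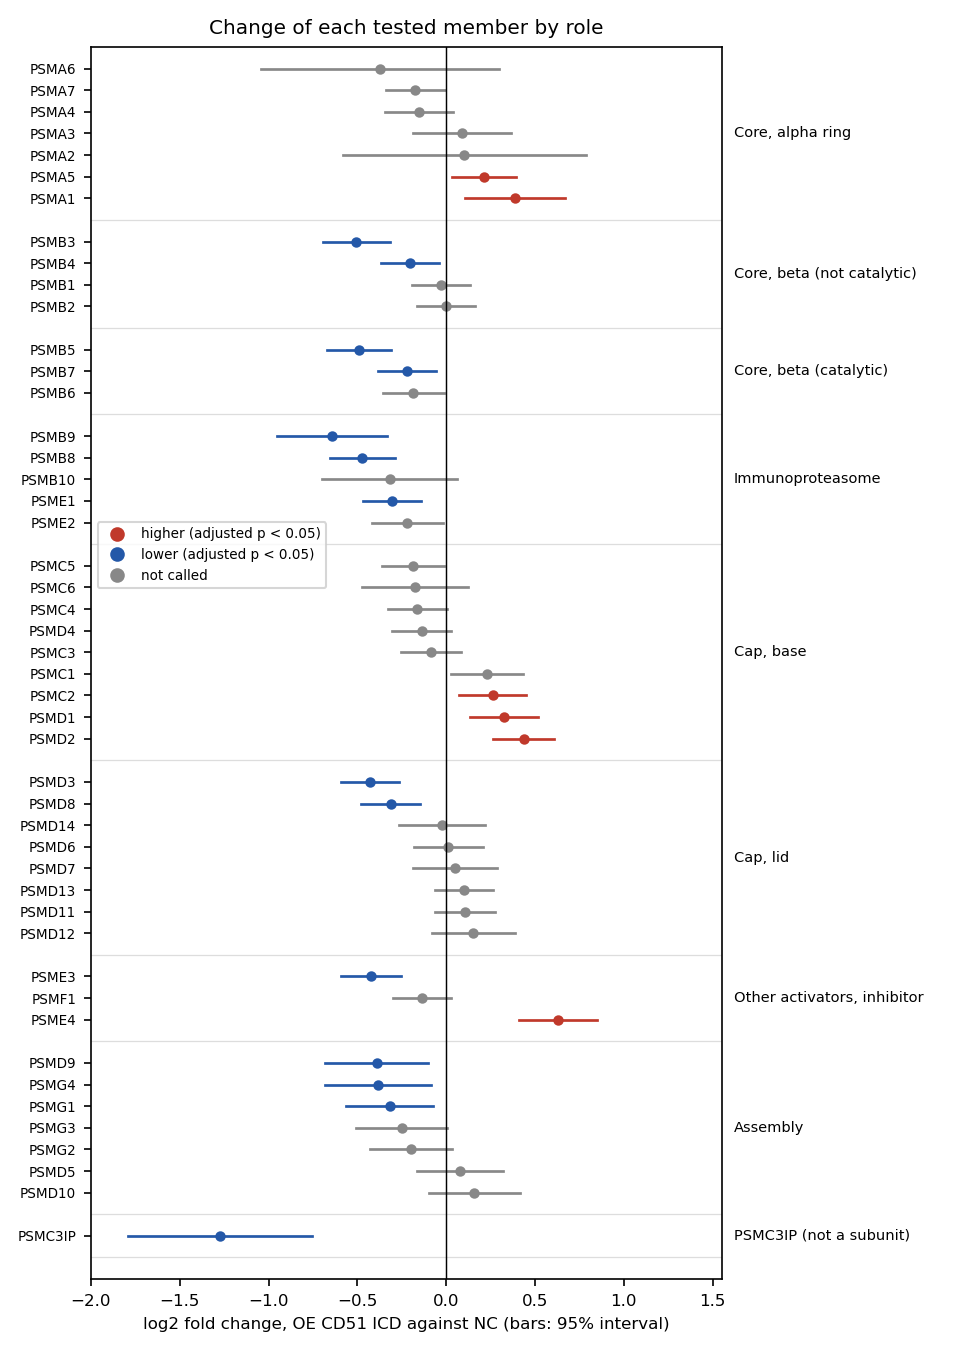
Log2 fold change of each tested member, OE CD51 ICD against NC (x axis), with its 95% interval, arranged by role on the y axis; colours mark members past an adjusted p of 0.05 in edgeR's test. Most called members lie within 1 log2 unit of 0. Of 9 base genes 3 are called higher and the others are not called. Called immunoproteasome and catalytic genes are lower, 3 of 5 and 2 of 3 tested.

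The catalytic beta subunits were lower or did not pass. PSMB5, which carries the chymotrypsin-like site (ENSG00000100804, chromosome 14, 23016543 to 23035230, GRCh38), was 173, 161 and 151 CPM in the NC libraries and 111, 106 and 129 CPM in OE CD51 ICD. The groups did not overlap, and the gene fell by 28.8% (log2 -0.49 ± 0.09 SE, adjusted p = 2.48e-05). PSMB7, the trypsin-like subunit, was 209, 193 and 205 CPM against 166, 167 and 188 CPM. These ranges did not overlap either, and the log2 fold change was -0.22 (adjusted p = 0.0239). That call was lost without NC replicate 1 or 3 or OE CD51 ICD replicate 1 or 2, with adjusted p from 0.0502 to 0.192. PSMB6, the caspase-like subunit, was 133, 125 and 115 CPM against 109, 105 and 115 CPM. It did not pass (log2 -0.18, 95% interval -0.36 to -0.01, adjusted p = 0.0668), but did without NC replicate 3 (adjusted p = 0.0280) or OE CD51 ICD replicate 3 (adjusted p = 0.0300). Summed over the 3 genes, FPKM (counts per length and library size) was 288 ± 13.3 in NC and 235 ± 19.2 in OE CD51 ICD.

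Of the 4 other beta subunits, PSMB3 and PSMB4 were lower and PSMB1 and PSMB2 did not pass. PSMB3 (ENSG00000277791, chromosome 17, 38752736 to 38764231) was 140, 135 and 127 CPM in NC and 92.0, 81.9 and 109 CPM in OE CD51 ICD. Every OE CD51 ICD library was below every NC library, and the gene fell by 29.6% (log2 -0.51 ± 0.09 SE, adjusted p = 3.73e-05). PSMB4 averaged 258 ± 17.2 and 224 ± 9.11 CPM (adjusted p = 0.0317). Its call was lost when NC replicate 1 or 2 or OE CD51 ICD replicate 1 or 2 was left out (adjusted p = 0.0696 to 0.182) and under upper-quartile scaling (adjusted p = 0.0839). PSMB2 had means of 141.7 and 141.6 CPM, with a 95% interval of the log2 difference from -0.16 to 0.16, and that of PSMB1 ran from -0.19 to 0.14. With the GC trend removed both passed as lower (log2 -0.19 and -0.26, adjusted p = 0.0238 and 0.00853).

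The alpha ring, which gates entry to the barrel, held 8 members, of which 7 were tested, 2 were higher and 5 did not pass. PSMA1 (ENSG00000129084, chromosome 11, 14504874 to 14643635) was 12, 12.5 and 13.0 CPM in NC and 16.0, 15.8 and 17.2 CPM in OE CD51 ICD. The groups did not overlap (log2 0.39 ± 0.14 SE, adjusted p = 0.0206), but the call was lost without NC replicate 1 or 2 (adjusted p = 0.0713 and 0.0566). PSMA5 was 61.4, 64.6 and 64.5 CPM in NC and 70.9, 74.5 and 75.3 CPM in OE CD51 ICD. That difference also did not overlap (log2 0.21, adjusted p = 0.0419). It no longer passed with any 1 of 5 libraries left out, all but OE CD51 ICD replicate 3 (adjusted p = 0.0578 to 0.155), and with the GC trend removed its log2 value was -0.04. PSMA7, the alpha subunit with the highest level, was 200 ± 10.6 CPM in NC against 177 ± 12.3 CPM in OE CD51 ICD and did not pass (adjusted p = 0.0725). It passed as lower without NC replicate 3 (adjusted p = 0.0396), as did PSMA4 (adjusted p = 0.0264), and with OE CD51 ICD replicate 3 left out (adjusted p = 0.0166). Removal of the GC trend gave a log2 value of -0.37 for PSMA4 (adjusted p = 6.99e-04). PSMA2 and PSMA6 had only 78 and 88 counts over the 3 NC libraries. Of their coding bases 97.1% and 70.4% are shared with a read-through gene on the same strand (AC010132.3 and AL121594.1), as are 88.6% of those of PSMA1 (AC018523.2), so the counts of these 3 genes are uncertain. The sources used here do not say how reads shared by overlapping genes were counted.

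In the cap's base, PSMD2, PSMD1 and PSMC2 were higher, and no base gene passed as lower. PSMD2, a non-ATPase scaffold of the base (ENSG00000175166, chromosome 3, 184298709 to 184309054), was 1213, 1112 and 1146 CPM in NC and 1559, 1378 and 1760 CPM in OE CD51 ICD. All OE CD51 ICD libraries were above all NC libraries, a rise of 35.3% (log2 0.44 ± 0.08 SE, adjusted p = 7.55e-05), and the call held under all 22 alternatives. PSMD1, the other large scaffold, was 68.0, 68.5 and 63.3 CPM against 87.6, 90.1 and 72.6 CPM. The groups were apart here too (log2 0.33 ± 0.09 SE, adjusted p = 0.00422), while with the GC trend removed the log2 value was 0.14 (adjusted p = 0.110). The ATPase gene PSMC2 went from 55.7 ± 3.39 to 66.8 ± 4.35 CPM (log2 0.26, adjusted p = 0.0181). Its call was lost without NC replicate 3 (adjusted p = 0.0924) or OE CD51 ICD replicate 1 (adjusted p = 0.117), and the log2 value was 0.02 with the GC trend removed. The other 5 ATPases, PSMC1 and PSMC3 to PSMC6, and the ubiquitin receptor gene PSMD4 did not pass. Among them the groups did not overlap in PSMC1, which was higher, and in PSMC4 and PSMC5, which were lower. The log2 values of PSMC4 and PSMC5 were -0.16 and -0.19 (adjusted p = 0.0947 and 0.0662). The median log2 fold change of the 9 base genes was -0.08. PSMC1 came nearest as a higher value, with adjusted p = 0.0510, and 75.8% of its exon bases overlap NRDE2 on the other strand. With NC replicate 3 left out, PSMC1 passed as higher (adjusted p = 0.0187) and PSMC6 as lower (adjusted p = 0.0107). With OE CD51 ICD replicate 3 left out, PSMC1 passed as higher (adjusted p = 0.0454), and PSMC5 and PSMD4 as lower (adjusted p = 0.00870 and 0.0287).

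The lid held 2 lower members of 8. PSMD3 (ENSG00000108344, chromosome 17, 39980797 to 39997960), a scaffold subunit of the lid, was 361, 348 and 341 CPM in NC and 257, 239 and 284 CPM in OE CD51 ICD. It fell by 25.8% with no overlap of the groups (log2 -0.43 ± 0.08 SE, adjusted p = 4.63e-05). PSMD8 was 183, 181 and 186 CPM against 139, 141 and 163 CPM, also without overlap (log2 -0.31 ± 0.08 SE, adjusted p = 0.00203). PSMD14, the deubiquitinase that removes chains at the cap, was 39.1 ± 7.61 and 38.5 ± 3.06 CPM, with a 95% interval from -0.26 to 0.22. PSMD6, PSMD7, PSMD11, PSMD12 and PSMD13 did not pass either, with log2 fold changes from 0.01 to 0.15. Summed FPKM was 204 ± 4.89 in NC and 178 ± 11.8 in OE CD51 ICD for the lid, and 488 ± 13.7 and 547 ± 54.7 for the base. Without PSMD2 the base sums were 277 ± 6.30 and 263 ± 16.6.

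The alternative activators PSME3 and PSME4 changed in opposite directions. PSME4, the large single-chain activator (ENSG00000068878, chromosome 2, 53864067 to 53970840), was 31.5, 31.2 and 30.8 CPM in NC and 48.8, 54.4 and 41.3 CPM in OE CD51 ICD. Even the lowest OE CD51 ICD library exceeded the NC libraries, and this was the largest rise among members, 54.6% (log2 0.63 ± 0.11 SE, adjusted p = 1.37e-05). PSME3, the nuclear activator (ENSG00000131467, chromosome 17, 42824385 to 42843758), was 213, 196 and 226 CPM against 161, 146 and 167 CPM. It fell by 25.4% without overlap (log2 -0.42 ± 0.08 SE, adjusted p = 8.26e-05). The ratio of PSME3 to PSME4 in FPKM was 13.5, 12.5 and 14.6 in NC and 6.55, 5.34 and 8.03 in OE CD51 ICD, so PSME3 stayed the higher of the pair in all 6 libraries. PSMF1, an inhibitor of the core, was 141 ± 5.59 and 128 ± 3.23 CPM and did not pass (adjusted p = 0.162).

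**Figure D2:**
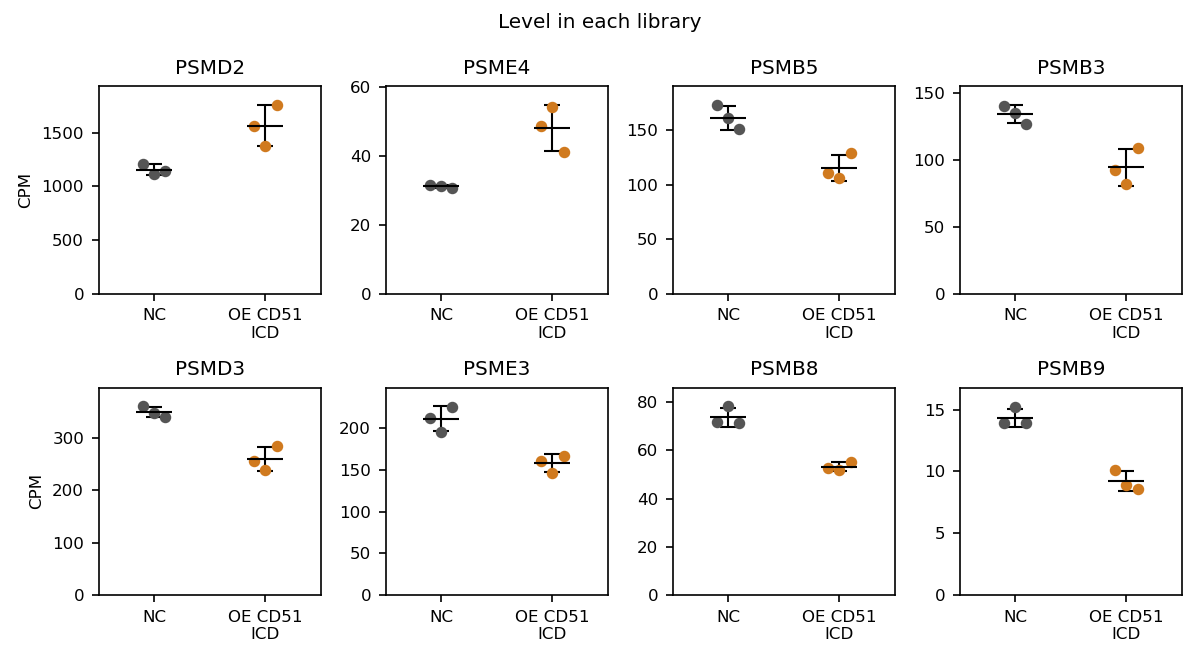
Level in CPM (y axis, starting at 0) of 8 called members in each NC and OE CD51 ICD library (points), with group mean and SD (n = 3). PSMD2 and PSME4 have all OE CD51 ICD points above NC, and PSMB5, PSMB3, PSMD3, PSME3, PSMB8 and PSMB9 have all of them below.

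Of the immunoproteasome group, 5 of 6 members were tested and 3 were lower. PSMB8 (ENSG00000204264, chromosome 6, 32840717 to 32844703) was 71.7, 78.4 and 71.3 CPM in NC and 52.6, 51.7 and 55.3 CPM in OE CD51 ICD, and fell by 27.9% with no overlap (log2 -0.47 ± 0.09 SE, adjusted p = 6.00e-05). Its neighbour PSMB9 (ENSG00000240065, chromosome 6, 32844136 to 32859585) was 13.9, 15.2 and 13.9 CPM against 10.1, 8.88 and 8.58 CPM. It fell by 36.0%, the most among true subunits (log2 -0.64 ± 0.15 SE, adjusted p = 7.08e-04). Exons of PSMB8 and PSMB9 overlap on opposite strands, at 4.6% and 4.5% of their exon bases. PSMB8 also shares 20.6% of its exon bases with PSMB8-AS1 on the other strand. PSMB10 was 8.68, 7.01 and 7.77 CPM against 6.78, 4.92 and 7.15 CPM. These values overlap (log2 -0.32, 95% interval -0.70 to 0.06, adjusted p = 0.156), and 58.3% of its coding bases are shared with AC040162.1. The cap gene PSME1 was 187, 187 and 197 CPM against 149, 148 and 166 CPM, lower in every OE CD51 ICD library (log2 -0.31 ± 0.08 SE, adjusted p = 0.00202). Its partner PSME2 was 55.5 ± 0.657 and 47.8 ± 5.18 CPM and did not pass (adjusted p = 0.0626), although it did without OE CD51 ICD replicate 3 (adjusted p = 0.0132).

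Immunoproteasome and constitutive catalytic subunits were then compared as pairs, by the share of the first in the pair's summed FPKM. PSMB8 made up 19.6%, 22.3% and 21.8% of PSMB8 plus PSMB5 in NC and 21.9%, 22.4% and 20.2% in OE CD51 ICD. These shares overlap, since both genes were lower, with a difference of 0.24 percentage points (two-sided exact permutation test, p = 0.6, adjusted over 3 pairs 0.7) that turned to -0.55 when NC replicate 1 was left out and to -0.18 when OE CD51 ICD replicate 2 was. PSMB9 made up 4.71%, 5.41% and 5.41% of PSMB9 plus PSMB6 in NC and 4.17%, 3.85% and 3.41% in OE CD51 ICD. The groups were apart by -1.37 points, with an exact permutation p of 0.1, the smallest that 3 libraries against 3 can give, and 0.3 after adjustment. On counts not divided by length the difference was -2.63 points (exact permutation p = 0.1). PSMB10 made up 3.86%, 3.39% and 3.53% of PSMB10 plus PSMB7 in NC and 3.79%, 2.76% and 3.55% in OE CD51 ICD (exact permutation p = 0.7, adjusted 0.7). That overlap left a difference of -0.23 points, and 0.08 points without OE CD51 ICD replicate 2. In each library the constitutive subunit had the higher FPKM of its pair. The PSMB10 share is uncertain, since 58.3% of that gene's coding bases are shared with a gene on the same strand.

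**Figure D3:**
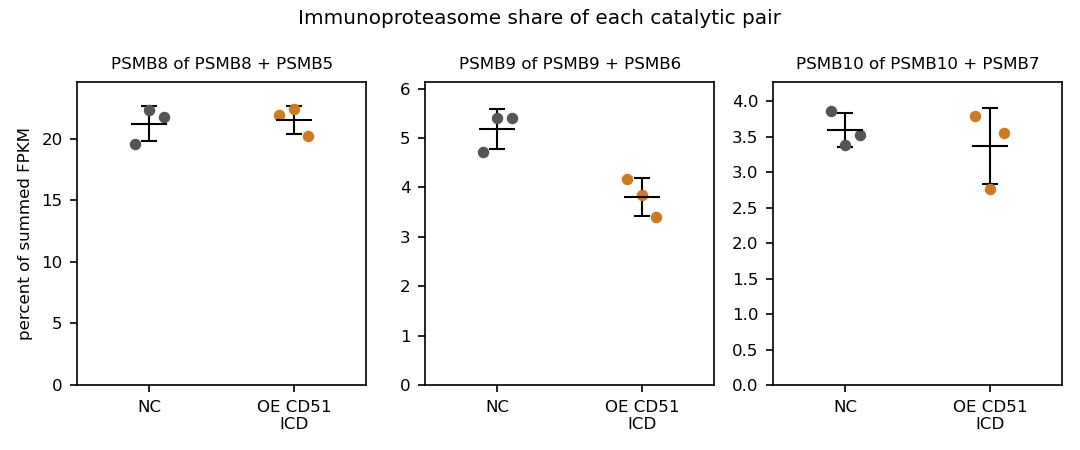
Share of the immunoproteasome subunit in the summed FPKM of its pair, in percent (y axis, starting at 0), in each library (points) with group mean and SD (n = 3). The PSMB9 share is 4.71% to 5.41% in NC and 3.41% to 4.17% in OE CD51 ICD, and the other pairs overlap.

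Assembly factors guide the rings and the base together, and 3 of 7 were lower. PSMD9, a chaperone of the base, was 14.6, 15.2 and 16.0 CPM in NC and 10.9, 11.8 and 12.2 CPM in OE CD51 ICD. Its groups did not overlap (log2 -0.39 ± 0.14 SE, adjusted p = 0.0229), but 58.7% of its coding bases lie in a read-through gene, and the call was lost without NC replicate 2 or 3 or OE CD51 ICD replicate 1 (adjusted p = 0.0541 to 0.125). PSMG1, part of the alpha ring chaperone with PSMG2, was 26.7 ± 1.86 and 21.4 ± 2.14 CPM (adjusted p = 0.0273). It failed to pass without NC replicate 1 or 2 or OE CD51 ICD replicate 1 or 2 (adjusted p = 0.0653 to 0.193). PSMG4, partner of PSMG3, was 18.0 ± 2.62 and 13.8 ± 1.78 CPM, with overlapping libraries (adjusted p = 0.0295). Its call did not survive leaving out NC replicate 1 or 2 or OE CD51 ICD replicate 2 (adjusted p = 0.0840 to 0.157) or DESeq2 (adjusted p = 0.0606). PSMG2, PSMG3, PSMD5 and PSMD10 did not pass. PSMG3 passed as lower with OE CD51 ICD replicate 3 left out (adjusted p = 0.0270) or with scaling by library size alone (adjusted p = 0.0435). PSMC3IP, the member by name only, was 5.26, 5.80 and 5.47 CPM against 1.45, 2.12 and 3.29 CPM. It fell by 58.7% (adjusted p = 1.03e-04), and 29.9% of its exon bases overlap MLX on the other strand.

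Levels per length differed widely between subunits that are present in equal numbers in the assembled particle. PSMD2 was the highest in both groups, at 211 ± 8.96 FPKM in NC and 284 ± 38.1 in OE CD51 ICD. It was followed in NC by PSMB4 at 119 ± 7.53, PSMA7 at 114 ± 5.67, PSMB3 at 113 ± 5.24 and PSMB7 at 112 ± 4.63, whose means lie within their spread of each other. PSMA2 and PSMA6, the uncertain alpha genes, were the lowest detected, at 0.311 and 0.287. PSMD2 stood 14.5, 13.1 and 15.7 times above the median of the other base and lid genes in NC, and 15.6, 13.8 and 20.1 times above it in OE CD51 ICD. The ranges of that ratio overlap. PSMD2 alone held 21.9%, 20.9% and 21.8% of the members' summed CPM in NC and 29.6%, 27.5% and 30.8% in OE CD51 ICD, where the groups are apart. No exon bases of PSMD2 are shared with another annotated gene. The deposited gene length counts every annotated exon, so a gene with long rare exons reads low on this scale.

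**Figure D4:**
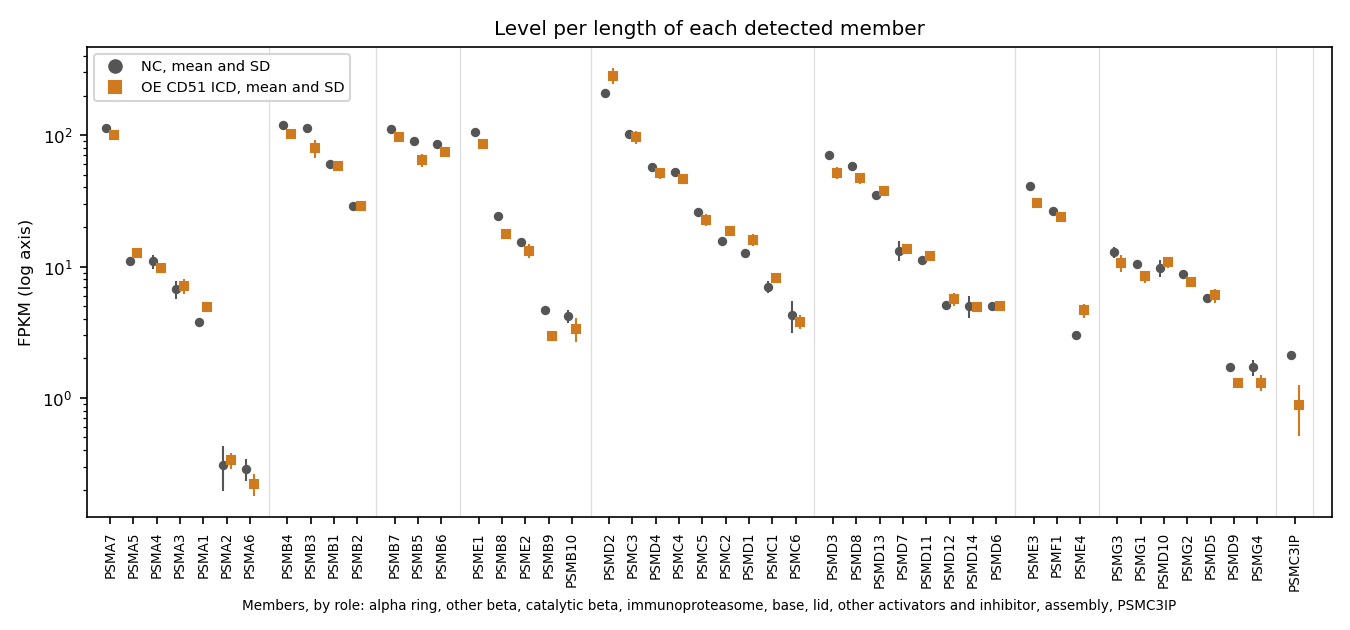
Mean FPKM (y axis, log scale) of each detected member in NC and OE CD51 ICD, with SD (n = 3), grouped by role along the x axis. PSMD2 is the highest in both groups at 211 and 284 FPKM, and PSMA2 and PSMA6 are the lowest detected.

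Calls among members went along with base composition. The median GC content of the longest transcript was 42.8% in the 6 higher members, 47.5% in those not called and 51.9% in the 13 lower subunits and factors, beside 48.6% for all genes tested. Across the 47 members, GC content and log2 fold change had Pearson's r = -0.40 and Spearman's rho = -0.48, given as a description since the members share libraries, and across 13781 genes the values were -0.23 and -0.32. PSMD2, at 54.3% GC, was higher although it lay in the GC range of the lower members, which is 46.7% to 55.0%. With the GC trend removed, PSMD2 and PSME4 were the 2 members still higher, and 9 members not called before passed as lower: PSMA4, PSMB1, PSMB2, PSMC5, PSMC6, PSMD6, PSMD14, PSME2 and PSMF1, with adjusted p from 6.99e-04 to 0.0315.

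**Figure D5:**
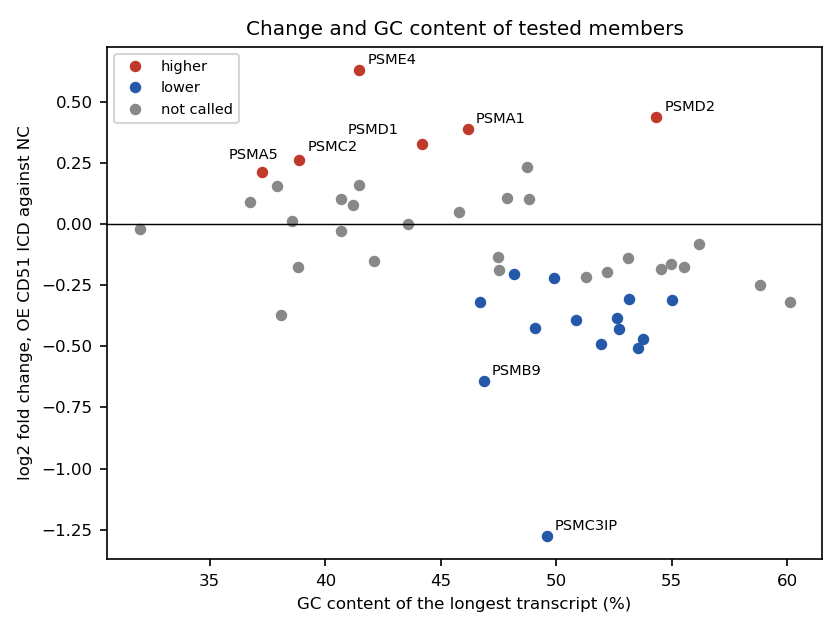
GC content of the longest transcript in percent (x axis) against log2 fold change, OE CD51 ICD against NC (y axis), for the 47 tested members, coloured by edgeR call. Higher members lie mostly at low GC, with PSMD2 at 54.3% as the exception, and lower members between 46.7% and 55.0%.

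Genes around the proteasome showed both directions. Over all genes tested, 25.2% were called higher and 25.8% lower. Among 11 other proteasome-bound proteins outside the naming rule, 3 were higher (27.3%) and 2 lower (18.2%). ADRM1, the ubiquitin receptor that docks on PSMD1, was 155, 150 and 154 CPM in NC and 112, 107 and 134 CPM in OE CD51 ICD. It fell with no overlap (log2 -0.38 ± 0.09 SE, adjusted p = 5.43e-04), as did UCHL5, the deubiquitinase that ADRM1 recruits (log2 -0.39, adjusted p = 0.0337). ECPAS, a proteasome adaptor and scaffold, was 75.7, 76.8 and 81.2 CPM against 99.2, 113 and 90.8 CPM and was higher (log2 0.37, adjusted p = 8.69e-04). POMP, the chaperone of beta ring assembly, was 52.0 ± 6.61 and 48.5 ± 5.89 CPM and did not pass (adjusted p = 0.449).

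Of 9 genes that control NFE2L1, or act beside it, 4 were higher (44.4%, against 25.2% of all genes) and 1 lower (11.1%, against 25.8%). NFE2L1 itself was 472, 503 and 571 CPM in NC and 483, 465 and 498 CPM in OE CD51 ICD, overlapping groups that did not pass (log2 -0.10, adjusted p = 0.335). SEL1L and SYVN1, which together form the ubiquitin ligase that retrieves proteins from the endoplasmic reticulum, had log2 fold changes of 0.95 and 0.64 (adjusted p = 1.18e-09 and 3.95e-07). DDI2, the protease that cleaves NFE2L1, was 8.85, 9.63 and 11.6 CPM in NC against 14.2, 15.0 and 12.3 CPM, groups that did not overlap (log2 0.47, adjusted p = 0.0131). VCP, the segregase that extracts substrates, was 1042 ± 27.6 and 962 ± 39.5 CPM. It did not pass (log2 -0.11, adjusted p = 0.212), although every OE CD51 ICD library lay below every NC library. The lower gene of the list was UFD1, without overlap (log2 -0.32, adjusted p = 0.00364). In the ubiquitin supply list, 3 of 11 were higher and 3 lower (27.3% each, near the shares of all genes). UBA6, a ubiquitin-activating enzyme, was 9.60 ± 2.48 and 17.1 ± 3.27 CPM (adjusted p = 1.81e-04). UBQLN4, a shuttle that brings ubiquitinated proteins to the cap, was lower (log2 -0.44, adjusted p = 9.34e-05). UBQLN1 and UBQLN2 went the other way and were higher (log2 0.24 and 0.39, adjusted p = 0.0256 and 0.00550).

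Among 14 genes of MHC class I processing and interferon response, 2 were higher (14.3%, against 25.2% of all genes) and 4 lower (28.6%, against 25.8%). The median log2 fold change of the 14 was -0.02. TAP1, a subunit of the peptide transporter, was 51.5, 49.0 and 53.1 CPM in NC and 37.5, 38.8 and 45.2 CPM in OE CD51 ICD. It fell without overlap (log2 -0.34 ± 0.10 SE, adjusted p = 0.00536), and its partner TAP2 fell from 10.5 ± 0.934 to 5.84 ± 0.395 CPM (adjusted p = 1.24e-04). CIITA, the class II transactivator, fell from 2.92 ± 0.570 to 0.929 ± 0.284 CPM (adjusted p = 1.16e-04). ERAP1, the peptidase that trims peptides in the endoplasmic reticulum, rose from 22.2 ± 3.11 to 36.5 ± 3.47 CPM (adjusted p = 8.73e-06). IRF1 and NLRC5, which drive interferon-induced and class I genes, did not pass, with log2 fold changes of -0.01 and 0.05. HLA-B, HLA-C and B2M did not pass either (log2 0.09, 0.10 and -0.03), although HLA-B and HLA-C were higher without overlap. The class I gene HLA-E was lower without overlap (log2 -0.30, adjusted p = 0.00256).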

How the data were processed

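The authors deposited whole-number gene counts and FPKM values for the same 6 libraries, both listing 58735 genes with coordinates and lengths per the file headers. Deposited FPKM equalled the counts divided by gene length and 1 constant per library. Per the submitters' processing notes the build was hg38; neither the aligner, the counter nor the strand setting is given in the sources used here. Per the labels' protocols, RNA was taken with TRNzol or a Quick-RNA kit and libraries were made with a SMARTER kit. No count column lacked a sample.

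The test on counts used edgeR 4.0.16 under R 4.3.3 (filterByExpr, TMM scaling, glmQLFit and glmQLFTest, two-sided, Benjamini-Hochberg over 13787 genes, threshold 0.05) on all 6 libraries with no covariate. Standard errors came from the F statistic. The biological coefficient of variation was 9.44%. Member coordinates all matched GENCODE 29, which gave exon overlaps and GC content. Alternatives used limma 3.58.1, DESeq2 1.42.0, pseudocounts of 1 and 0.1 FPKM on the log2 scale, other scalings and filters, removal of GC or length trends (loess span 0.5), omission of chromosome 11 or single libraries, and the replicate number as a block. Code was tested on simulated data. Other tools were matplotlib 3.10.9, SciPy 1.17.1, NumPy 2.4.6 and pandas 2.3.3 under Python 3.11.15.

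Members, roles and lists were chosen with earlier results of these data known. Values of every library are given for the catalytic subunits, for the largest called rise and fall of each role, and for the 5 members with the smallest adjusted p, which are PSME4, PSMB5, PSMB3, PSMD3 and PSMB8; those of other genes were added after their values were seen. From each surrounding list up to 3 called genes with large changes were named, with POMP, NFE2L1 and TAP1 whatever their value and a few others chosen after seeing values. Some genes of the surrounding lists are counted but not reported here by name.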

Additional observations from a re-analysis of the deposited data

How the results depend on the processing

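Of the 20 called members, 11 stayed called under all 22 alternatives (PSMB3, PSMB5, PSMB8, PSMB9, PSMC3IP, PSMD2, PSMD3, PSMD8, PSME1, PSME3 and PSME4), 9 lost the call in some, 15 of 27 uncalled members gained one in some, and 12 members changed sign in some; the cause was not tested. Members called higher numbered 3 by library size alone, 2 with the GC trend removed and 2 with the replicate block and the GC trend removed. Members called lower numbered 22, 23 and 22 in these settings, and 9 by limma on log2(FPKM + 1) without a filter. Over all genes, lower calls numbered 4051, 3784, 3649 and 2730 in the same order. Library size alone gave a median of -0.23. The labels do not state whether the replicate numbers pair the libraries. Same-numbered deviations from the group means correlated at -0.05, 0.00134 and 0.05, and differently numbered ones at -0.0844 to 0.0874. With 3 libraries per group these values cannot settle whether the libraries were paired. The replicate block alone gave 7 higher, 14 lower and 6989 called genes. With 1 library left out, members higher ranged from 4 to 7, members lower from 10 to 20, the median from -0.21 to -0.12, all called genes from 6007 to 7295, and the pair differences from -0.55 to 0.917 points (PSMB8), -1.60 to -1.17 (PSMB9) and -0.438 to 0.0767 (PSMB10).

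Sign changes arose in PSMA5 and in 11 uncalled members, of which PSMB1, PSMB2, PSMD6 and PSMD14 passed as lower with the GC trend removed (adjusted p = 0.00853 to 0.0238). PSMB2 was 0.00138 with RLE scaling, 0.0444 with upper-quartile scaling, 0.0117 with at least 10 counts in every library of 1 group, 0.0157 with protein-coding genes only and 0.0104 without chromosome 11. Upper-quartile scaling gave 0.0161 for PSMB1 and 0.0241 for PSMD14, and library size alone gave -0.0500 for PSMD6 and -0.0156 for PSMD7. Removal of the length trend gave 0.0120 for PSMC3, 0.0666 for PSMB1 and -0.168 for PSMD6. With the GC trend removed, and then with the replicate block as well, PSMC3 was 0.0386 and 0.0389, PSMA5 -0.0368 and -0.0362, PSMD7 -0.0988 and -0.0899, PSMD12 -0.0964 and -0.0949, PSMD5 -0.154 and -0.156, PSMD10 -0.0695 and -0.0663, PSMA3 -0.159 and -0.159, PSMA2 -0.118 and -0.0978, and PSMD6 -0.232 and -0.230. With 1 library left out, PSMC3 ranged from -0.143 to 0.00368, PSMB2 from -0.0367 to 0.0356, PSMB1 from -0.0690 to 0.00725, PSMD6 from -0.0186 to 0.0473, PSMD14 from -0.172 to 0.106, PSMD7 from -0.0939 to 0.131, PSMD5 from -0.0236 to 0.145, PSMA3 from -0.0188 to 0.220 and PSMA2 from -0.180 to 0.268. Depth limits PSMA2 and PSMA6 most, with 78 and 88 counts over the NC libraries.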

Other observations

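Besides the protein-coding members, 37 listed genes with a PSM symbol are not protein coding; 12 had a count and 4 passed the filter. PSMA3-AS1, an antisense RNA gene beside PSMA3 on chromosome 14, was 3.12, 2.76 and 2.57 CPM in NC and 4.87, 6.29 and 6.72 CPM in OE CD51 ICD. The groups did not overlap, and it rose 2.10-fold (log2 1.07 ± 0.22 SE, adjusted p = 1.62e-04 in edgeR's test), while PSMA3 was 21.2 ± 3.45 and 22.6 ± 3.25 CPM and did not pass. Their spans overlap, but PSMA3 shares no exon bases with another annotated gene. PSMG3-AS1, PSMC1P1 and PSMB8-AS1 did not pass.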
